A study of Sus scrofa with 6 samples.

Results

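MOS, CDK1, WEE1 and CCNE2 belong to the machinery that moves an oocyte from prophase arrest into the meiotic divisions and then holds it at metaphase II. CDK1, with a cyclin B partner, is the kinase of M-phase-promoting factor, and WEE1 keeps it inactive by phosphorylating it on tyrosine. MOS is a kinase that oocytes make from a stored transcript. It drives the MAP kinase cascade, through which the mature egg is kept at metaphase II. CCNE2 encodes cyclin E2, an activator of CDK2 that is best known from the entry of somatic cells into S phase. Much of this control in oocytes acts on translation and phosphorylation, which an array of transcript levels does not measure.

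The genes were taken as the probes whose only gene symbol in the platform's probe table was MOS, CDK1, WEE1 or CCNE2. That gave 4 of the 9782 named genes of the array, with 1 probe each among 12258, with the probe identifiers 15279200 for MOS, 15226320 for CDK1, 15263008 for WEE1 and 15278527 for CCNE2. The 4 genes were chosen by their log2 differences between the groups, 2 for a difference and 2 for little difference. Their levels are therefore given below as a description, with no test.

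The study profiled porcine oocytes on Affymetrix arrays, in 3 pools taken before maturation in culture and 3 taken after it. Each array held RNA from a pool of 50 morphologically selected oocytes of pubertal crossbred Landrace gilts, amplified in 2 rounds from 100 ng of total RNA. The matured oocytes had been cultured as cumulus-oocyte complexes, the oocyte with its surrounding somatic cells, for 44 h at 38 °C under 5% CO2 in TCM-199 medium with follicular fluid and the gonadotropins hCG and eCG. The pools before maturation are called in vivo in their titles and were not cultured, so maturation and culture cannot be told apart. The design text names a BCB dye test that sorted the oocytes, but no sample label gives its outcome. Nor do the labels say whether, or when, the cumulus cells were stripped from the oocytes.

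Values are log2 expression levels, on which a step of 1 is a 2-fold difference. Array medians lay between 5.62 and 5.70, and arrays of a group correlated at 0.989 to 0.995 across probes. Most oocyte markers were bright, while FIGLA had lower mean levels of 6.81 before and 6.97 after maturation. Besides MOS itself, 9 oocyte markers were measured, GDF9 and BMP15 among them, and 0 of the 9 had a group mean under the lower quartile of the arrays. Of 16 cumulus and granulosa markers measured, 13 lay above that quartile before maturation and 14 after it. For theca and stromal markers the counts were 7 and 9 of 11. They were 4 and 5 of 6 both for endothelial and for leukocyte and erythroid markers. Most probes lie above a lower quartile by definition, so these counts do not show that a cell type was present. No marker was listed at 0, since the lowest value on any array was 2.69, and detection calls were not analysed here.

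MOS was among the brightest probes of every array and barely differed between the groups. Before maturation its log2 levels were 11.41, 11.40 and 11.28 in replicates 1, 2 and 3, and after maturation they were 11.48, 11.32 and 11.40. The groups overlapped, and the highest and lowest of the 6 arrays were only 0.20 apart. The means were 11.36 ± 0.07 and 11.40 ± 0.08 (SD, n = 3), a difference after minus before of 0.04 ± 0.06 (SE). MOS lay between percentiles 99.5 and 99.6 of all probes on each array. Saturation of such bright probes was not assessed. Among the 9 pairings of an array after with an array before, 6 differences were positive and 3 negative, from -0.08 to 0.20.

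CDK1 also overlapped between the groups, but its replicates were far more scattered. Its log2 levels were 8.97, 9.75 and 9.26 before maturation and 9.50, 9.01 and 9.36 after it. Replicates 1 and 2 before maturation were the lowest and the highest of the 6 arrays, and all 3 matured arrays fell between them. The means were 9.33 ± 0.39 and 9.29 ± 0.25 (SD, n = 3), with a difference of -0.04 ± 0.27 (SE). The pooled within-group SD of CDK1, 0.33, exceeded that of 95.7% of probes, whereas that of MOS, 0.08, stood at percentile 13.5. Near-equal means thus tell less about CDK1 than about MOS. The 9 pairings of arrays gave differences from -0.74 to 0.53 for CDK1, so a change of that size in single pools was not resolved.

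WEE1, the kinase that restrains CDK1, lay lower in every matured pool than in any pool before maturation. Its log2 levels were 8.15, 7.46 and 8.40 before maturation and 5.55, 5.60 and 6.50 after it. Replicate 3 after maturation stood above the rest of its group, and replicate 2 was the lowest before maturation, yet a gap of 0.95 separated the groups. The means were 8.002 ± 0.49 and 5.89 ± 0.54 (SD, n = 3), a difference of -2.12 ± 0.42 (SE), or a 4.34-fold lower measured level. On each matured array WEE1 remained at least 1.15 above the lower quartile of all probes. It stood between percentiles 69.9 and 80.5 of the probes before maturation and between 49.0 and 60.1 after it.

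CCNE2 showed the largest difference of the 4 genes. Its log2 levels were 6.97, 7.51 and 8.07 before maturation and 4.55, 4.53 and 4.55 after it. The matured arrays agreed within 0.03 of each other, while the arrays before maturation were spread over 1.10, and the gap between the groups was 2.42. The means were 7.52 ± 0.55 and 4.54 ± 0.01 (SD, n = 3), a difference of -2.98 ± 0.32 (SE), or a 7.87-fold lower measured level. After maturation CCNE2 lay on average only 0.16 above the arrays' lower quartile. Background was not assessed, so the true fold may be larger than the measured one.

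**Figure D1:**
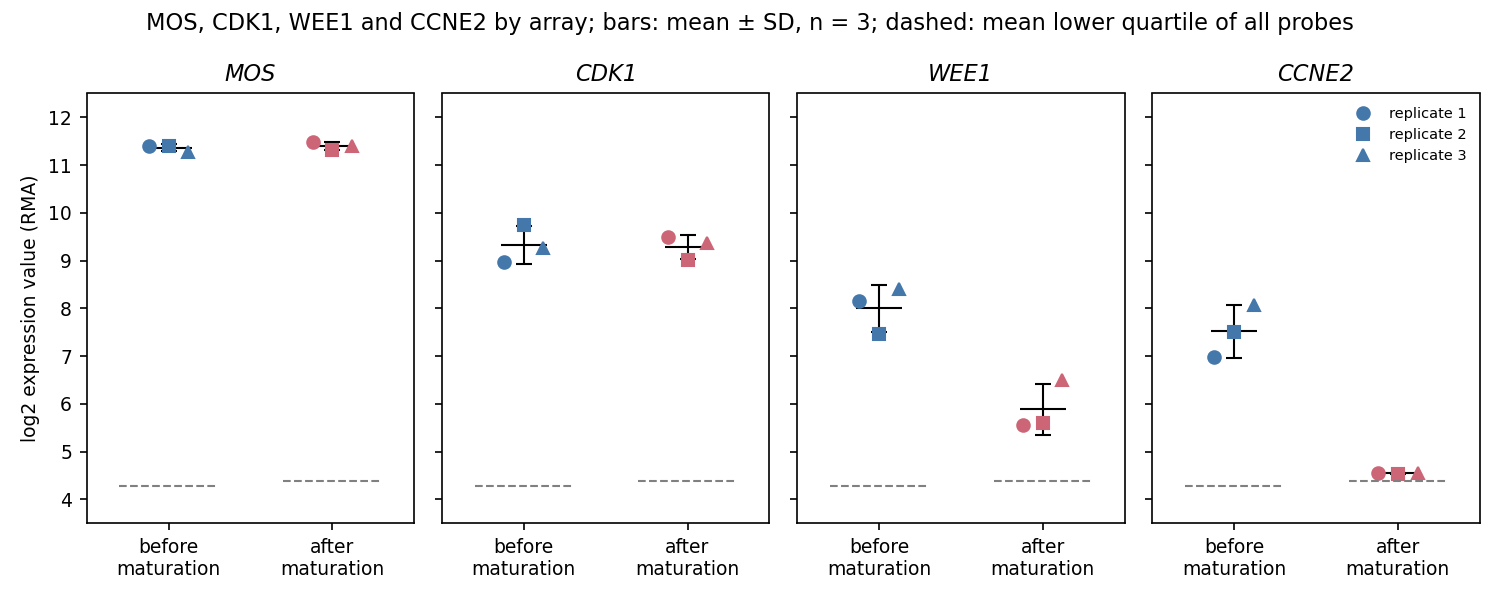
Log2 expression values (vertical axis) of MOS, CDK1, WEE1 and CCNE2 in the 3 arrays before (blue) and the 3 arrays after (red) maturation, with the symbol marking the replicate, bars the mean ± SD and the dashed line the mean lower quartile of all probes. MOS and CDK1 overlap between the groups, WEE1 goes from 8.002 to 5.89, and CCNE2 goes from 7.52 to 4.54, just above the dashed line.

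Groups did not overlap for 2 of the 4 genes, WEE1 and CCNE2, both lower after maturation. Over all probes the groups did not overlap for 36.1%, and for 14.4% in the lower direction. By size, 0.783% of probes lay at least 4-fold lower, and these included WEE1 and CCNE2. In the order of differences from the most negative, CCNE2 was at place 26 and WEE1 at place 77 of the 12258 probes. MOS and CDK1, by contrast, lay at places 10793 and 10806 when probes were ordered from the largest to the smallest absolute difference. Since these differences chose the genes, the shares and places describe them and support nothing further.

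**Figure D2:**
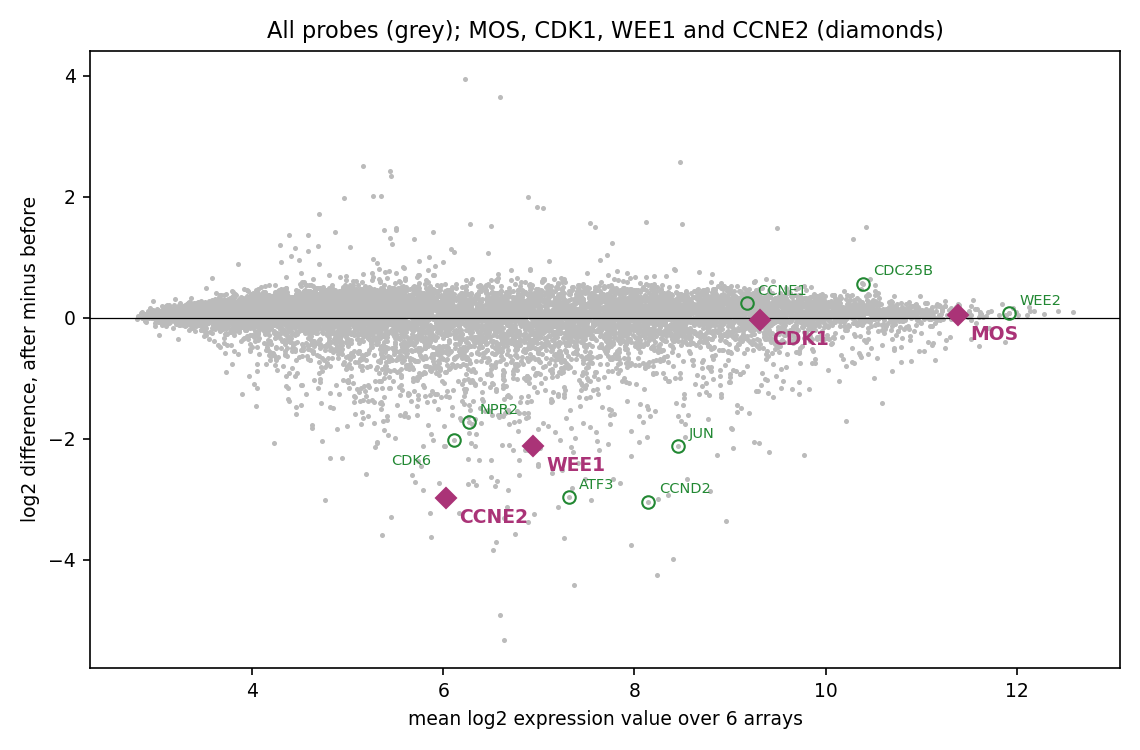
Log2 difference after minus before (vertical axis) against the mean log2 expression value over 6 arrays (horizontal axis) for 12258 probes in grey, with the 4 genes as diamonds and other genes described in the text as circles. CDK1 and MOS sit on the bright side near 0, at -0.04 and 0.04, while WEE1 and CCNE2 sit at -2.12 and -2.98 among the lowest differences.

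The genes were also compared within each array, where any shift of a whole array cancels. The change of CDK1 minus that of WEE1, the inhibitor that acts on it, was 2.08 ± 0.58 (SE, log2), and the within-array values of the groups did not overlap. For MOS minus WEE1 the corresponding value was 2.16 ± 0.44, and for MOS minus CCNE2 it was 3.02 ± 0.36. The changes of MOS and CDK1 differed by 0.08 ± 0.25, and those of WEE1 and CCNE2 by 0.86 ± 0.48, with overlapping groups in both cases. The gap between WEE1 and CCNE2 on the one side and MOS and CDK1 on the other was fixed by the choice of the genes, so these values only describe its size and were not tested.

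The close relatives of WEE1 and CCNE2 were measured as well. WEE2, the WEE1-related kinase of oocytes that holds meiotic arrest, had log2 levels of 11.88 ± 0.02 before and 11.96 ± 0.03 after maturation (SD, n = 3), a difference of 0.08 with a limma adjusted p of 0.556. WEE2 lay at percentile 99.9 of all probes on average in both groups, and saturation of such bright probes was not assessed. The change of WEE1 minus that of WEE2 was -2.20 ± 0.41 (SE). CCNE1, which encodes the other cyclin E, had levels of 9.05 ± 0.07 and 9.29 ± 0.08, a difference of 0.24 (adjusted p = 0.130). The change of CCNE2 minus that of CCNE1 was -3.22 ± 0.30 (SE). Within-array values of the groups overlapped for neither pair. WEE1 and CCNE2 were chosen for their differences, and WEE2 was named after its value was seen. The values of these pairs therefore only describe a size and were not tested.

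Beyond the 4 genes, the M-phase pathway was described by 9 lists of genes arranged by role. Of their 112 other genes, 66 were measured. At a limma adjusted p under 0.05, 1 was called higher, 3 were called lower and 62 were not called. That is 6.06% called, against 11.3% of all probes (3.21% higher and 8.07% lower). The median difference of the 66 genes was 0.08, and that of all probes was 0.08 as well. With the replicate number as a block 2 were called higher and 3 lower. Only NPR2 differed by 2-fold or more. At an unadjusted p under 0.05, 16 of the 66 passed: 4 in the cAMP-PKA arm, 2 each in the MOS-MAPK, WEE1, cyclin E, anaphase-promoting complex and polyadenylation lists, 1 each in the CDK1 and Greatwall lists, and 0 among the mitotic kinases.

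In the MOS-MAPK arm, which runs from MOS through the MAP kinase kinases to the RSK kinases, 5 genes besides MOS were measured and 1 rose. RPS6KA2, which encodes an RSK kinase, rose by 0.48 from 4.48 ± 0.05 to 4.96 ± 0.17 (SD, n = 3, adjusted p = 0.0264). It lay near the arrays' lower quartile, and it was not called with cyclic loess (adjusted p = 0.0886), after a second quantile normalization (adjusted p = 0.0675) or with replicate 1 or 3 after or replicate 2 or 3 before maturation left out (adjusted p up to 0.0992). RPS6KA6, another RSK gene, had a difference of -0.25 (adjusted p = 0.140). Around CDK1, 0 of 8 genes for cyclins, CKS proteins and the CDK-activating kinase passed the test. The largest differences there were those of CDK7 (-0.35, adjusted p = 0.0713), the catalytic subunit of the activating kinase, and CCNH (-0.26, adjusted p = 0.179), its cyclin. CCNB2, a B-type cyclin partner of CDK1, differed by 0.14 (adjusted p = 0.335).

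The list that holds WEE1 covers the kinases and phosphatases that switch CDK1 off and on. Besides WEE1, 7 of its genes were measured, all 7 with positive differences from 0.08 to 0.56, and 0 passed the test. The median difference of all probes was 0.08, so most probes lay on the positive side as well. CDC25B, the phosphatase that removes the phosphates WEE-family kinases place on CDK1, had log2 levels of 10.52, 9.91 and 9.89 before maturation and 10.81, 10.53 and 10.67 after it. Every matured array lay above every array before maturation, but replicate 1 before maturation was close to the matured ones. The difference was 0.56 ± 0.17 (SE, adjusted p = 0.0763). It passed the test in 5 of 13 alternative settings, among them the replicate block (adjusted p = 0.0212), a common median (adjusted p = 0.0477) and the fit that left out replicate 1 before maturation (0.77, adjusted p = 0.00589), and the adjusted p reached 0.219 in the others. YWHAZ, a 14-3-3 gene, differed by 0.28 (adjusted p = 0.132) at a level under the lower quartile.

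In the cyclin E-CDK2 module 0 of the 5 genes other than CCNE2 passed the test. CDKN1A, the gene of the CDK inhibitor p21, differed by 0.56 (adjusted p = 0.0872), and CDK2, the kinase that cyclin E activates, by 0.07 (adjusted p = 0.751). In the Greatwall-PP2A arm, which silences the phosphatase opposing CDK1, 0 of 7 genes were called, with differences from -0.14 to 0.27. The largest was that of PPP2R2C, a regulatory PP2A subunit gene, at 0.27 (adjusted p = 0.154). Its mean level lay under the lower quartile in both groups. ENSA, whose product inhibits PP2A, differed by 0.16 (adjusted p = 0.591). Of 4 mitotic kinase genes 0 were called, and AURKA and TTK differed by 0.05 and 0.12 (adjusted p = 0.710 and 0.586). The anaphase-promoting complex, its activators and its inhibitors gave 0 calls among 11 genes, with ANAPC5, a subunit gene, at -0.30 (adjusted p = 0.163) and FZR1, an activator gene, at -0.26 (adjusted p = 0.418). Of 9 genes for cytoplasmic polyadenylation, the process that wakes stored transcripts such as that of MOS, 0 were called. CPEB1, which encodes the binding protein of that process, differed by 0.32 (adjusted p = 0.175), and SYMPK, a scaffold gene of it, by -0.31 (adjusted p = 0.0881).

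The 3 decreases of the pathway were in the cAMP-PKA arm, which keeps the oocyte arrested before maturation. Of 10 measured genes 3 fell and 0 rose, against 8.07% of all probes called lower and 3.21% called higher. NPR2, the receptor on cumulus and granulosa cells whose cyclic GMP keeps oocyte cAMP high, fell by 1.72 from 7.14 ± 0.27 to 5.41 ± 0.22 (SD, n = 3, adjusted p = 0.000388). Beside it, 9 of 16 cumulus and granulosa markers fell and 3 rose, and their mean log2 level was 7.50 to 7.92 per array before maturation and 6.73 to 6.93 after it. Their part in the value of NPR2 was not tested. PRKAR2A and PRKAR1A, which encode regulatory subunits of protein kinase A, fell by 0.80 and 0.47 (adjusted p = 0.0237 and 0.0426). When ribosomal protein genes were held level, PRKAR2A lost the call (adjusted p = 0.0935) and PRKAR1A turned to 0.036 (adjusted p = 0.829). PRKAR1A also lost it with a common median, with trend and robust settings, and when any 1 of the 6 arrays was left out (adjusted p 0.0504 to 0.116), and PRKAR2A when replicate 1 or 2 after or replicate 3 before maturation was left out (adjusted p up to 0.0754).

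**Figure D3:**
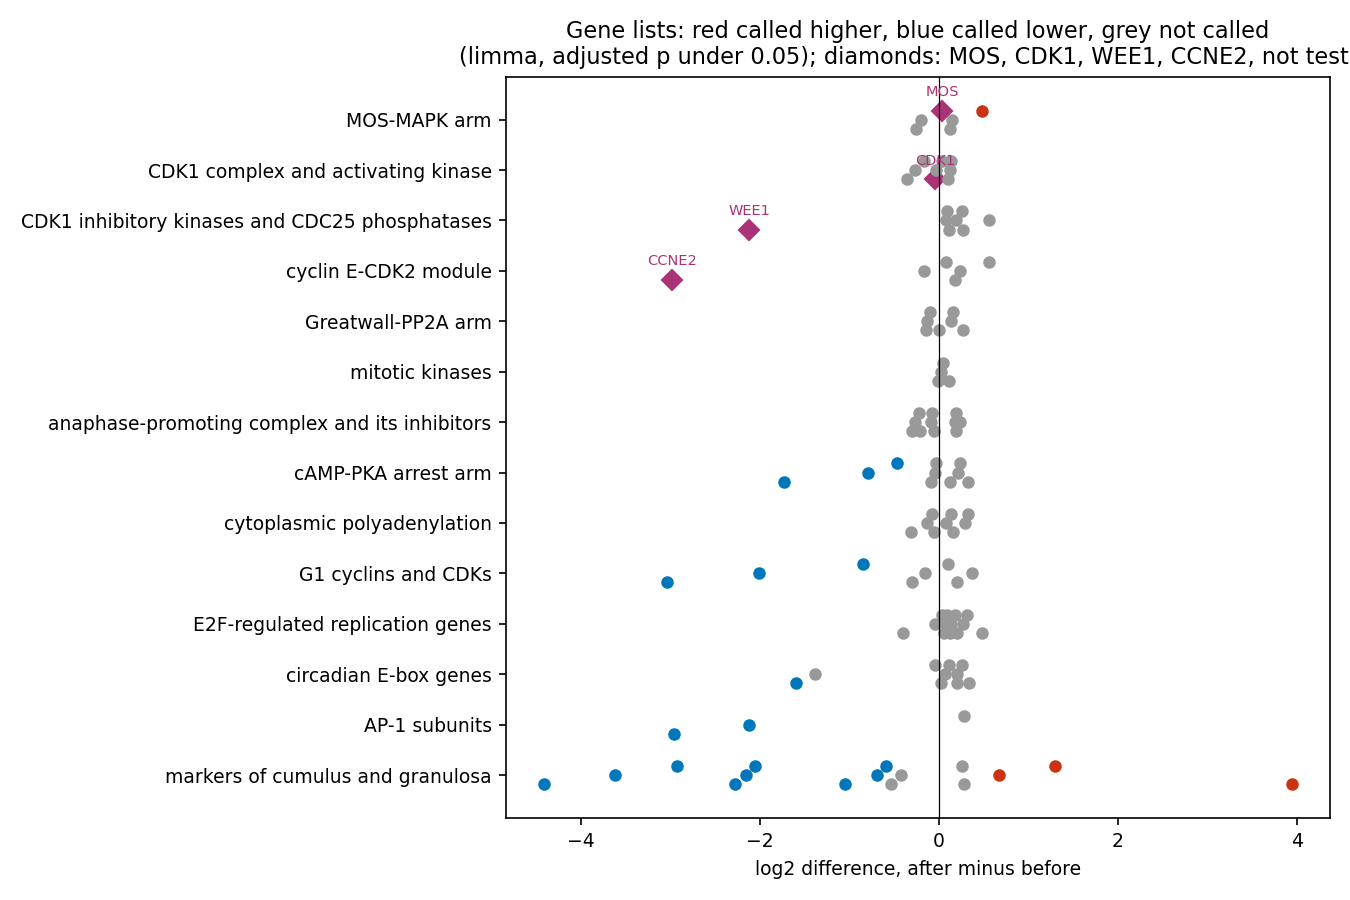
Log2 difference after minus before (horizontal axis) of each measured gene in 13 gene lists and the cumulus and granulosa markers (rows); diamonds are the 4 genes, which were not tested, red circles genes called higher, blue circles genes called lower and grey circles genes not called. WEE1 and CCNE2 stand apart from the other genes of their own lists, which lie between -0.17 and 0.56, while the G1 cyclin and AP-1 lists hold decreases of similar size.

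Further lists cover settings in which WEE1 and CCNE2 are known from somatic cells. CCNE2 is a textbook target of E2F factors. Of 13 measured E2F-regulated replication genes 0 passed the limma test (3 at an unadjusted p under 0.05). The differences of 11 of them were positive, as was the median of all probes, at 0.08. E2F1 itself differed by 0.48 (adjusted p = 0.0712). It passed with a common median (adjusted p = 0.0422), with ribosomal protein genes level (adjusted p = 0.000105) and when replicate 1 before maturation was left out (adjusted p = 0.0464), and its adjusted p reached 0.209 elsewhere. CDC45, a replication fork gene, differed by -0.40 (adjusted p = 0.133). Among 8 genes for G1 cyclins, their kinases and inhibitors 3 fell and 0 rose, against 8.07% of all probes called lower and 3.21% called higher. CCND2, the cyclin D gene prominent in granulosa cells, had log2 levels of 9.48, 9.62 and 9.88 before maturation and 6.67, 6.24 and 6.97 after it, and fell by 3.04 (adjusted p = 3.92e-05). CDK6, the gene of a kinase that D cyclins activate, fell by 2.01 (adjusted p = 0.00268), and CDKN2C, the gene of an inhibitor of that kinase, by 0.85 (adjusted p = 0.00291). CDKN2C lost the call when ribosomal protein genes were held level (adjusted p = 0.0575). Any link of the E2F-regulated and G1 genes to the level of CCNE2 was not tested.

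WEE1 is also known as a target of the circadian clock and of the AP-1 transcription factor. Of 10 clock genes 1 fell, BHLHE41, a repressor gene of the clock, by 1.60 (adjusted p = 0.0183). Its mean level after maturation, 3.66, lay under the arrays' lower quartile. BHLHE41 lost the call when any 1 of the matured arrays was left out (adjusted p up to 0.0745). BHLHE40, its close relative, differed by -1.38 (adjusted p = 0.114). It passed the test with the replicate block (adjusted p = 0.0407), and leaving out replicate 1 before maturation brought it to -0.69 (adjusted p = 0.0279). Only 3 AP-1 genes were measured, and 2 of them fell. JUN fell by 2.12 (adjusted p = 0.00103) and ATF3 fell by 2.96 (adjusted p = 1.87e-05), while FOSL1 differed by 0.28 (adjusted p = 0.173). Of all probes 8.07% were called lower. Any link of the clock and AP-1 genes to the level of WEE1 was not tested.

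Cumulus and granulosa markers were lower on average after maturation, as WEE1 and CCNE2 were, but not all of them were. Of the 16 measured, 9 fell, 3 rose and 4 were not called, against 8.07% of all probes called lower and 3.21% called higher. Summed on a linear scale, the 16 markers ranged from 8226 to 11208 per array before maturation and from 4885 to 5136 after it. Their mean log2 level was 7.50, 7.67 and 7.92 in replicates 1, 2 and 3 before maturation and 6.93, 6.75 and 6.73 after it. Before maturation CCNE2 had the same order over the replicates as this mean, and WEE1 did not, being lowest in replicate 2. After maturation neither gene had the order of this mean. The matured levels of CCNE2 lay within 0.03 of each other, and the marker means of replicates 2 and 3 nearly tied. Orders at that scale carry little information. The part of these markers in the values of WEE1 and CCNE2 was not tested. In pools of this kind fewer somatic cells and less RNA per cell cannot be told apart. For the 9 oocyte markers besides MOS, 3 fell (ZP3, ZP4 and KIT), 0 rose, and the median difference was -0.14. Endothelial, leukocyte and erythroid, and theca and stromal markers gave 0 of 6, 0 of 6 and 1 of 11 decreases with limma, and 0, 1 and 2 increases, where 2, 4 and 5 had an unadjusted p under 0.05. Their summed linear levels were 346 to 364, 376 to 402 and 489 to 638 before maturation and 350 to 424, 455 to 482 and 486 to 497 after it.

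Genes with the profile most like that of WEE1 and CCNE2 were sought over the 6 arrays, by the root mean square difference of log2 values centred on each gene's own mean. For WEE1 the nearest of the named genes was MCL1, a BCL2-related gene that protects from cell death, with a root mean square difference of 0.22. It was followed by PDK4, a mitochondrial kinase gene, CD58, an adhesion gene, RTN4, a reticulon gene, and CLK1, the gene of a kinase of splicing factors, at 0.23 to 0.30. MCL1, PDK4, CD58, RTN4 and CLK1 shared with WEE1 the lowest level before maturation in replicate 2, and the differences after minus before of these 5 genes ran from -2.11 to -1.86. CCNE2 had closer neighbours. MCOLN3, a cation channel gene, lay at 0.07, and PLA2G7, a phospholipase gene, INTS6L, PRKCB, a protein kinase C gene, and SERPINE2, a protease inhibitor gene of the granulosa marker list, at 0.15 to 0.18. In these 5 genes the levels before maturation stood in the order of CCNE2, lowest in replicate 1 and highest in replicate 3, and the differences ran from -3.23 to -2.71. PDK4 among the neighbours of WEE1, and MCOLN3, INTS6L and PRKCB among those of CCNE2, lay under the lower quartile on average after maturation. WEE1 and CCNE2 were not close neighbours of each other, with a root mean square difference of 0.64, which put CCNE2 at place 268 from WEE1 and WEE1 at place 85 from CCNE2. Correlations over the 6 arrays were 0.96 to 0.99 for the genes around WEE1 and at least 0.99 for those around CCNE2. They rest mainly on the step between the groups, which all these genes share. The search used the same 6 arrays, so the shared orders and similar differences were selected for and support nothing further.

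**Figure D4:**
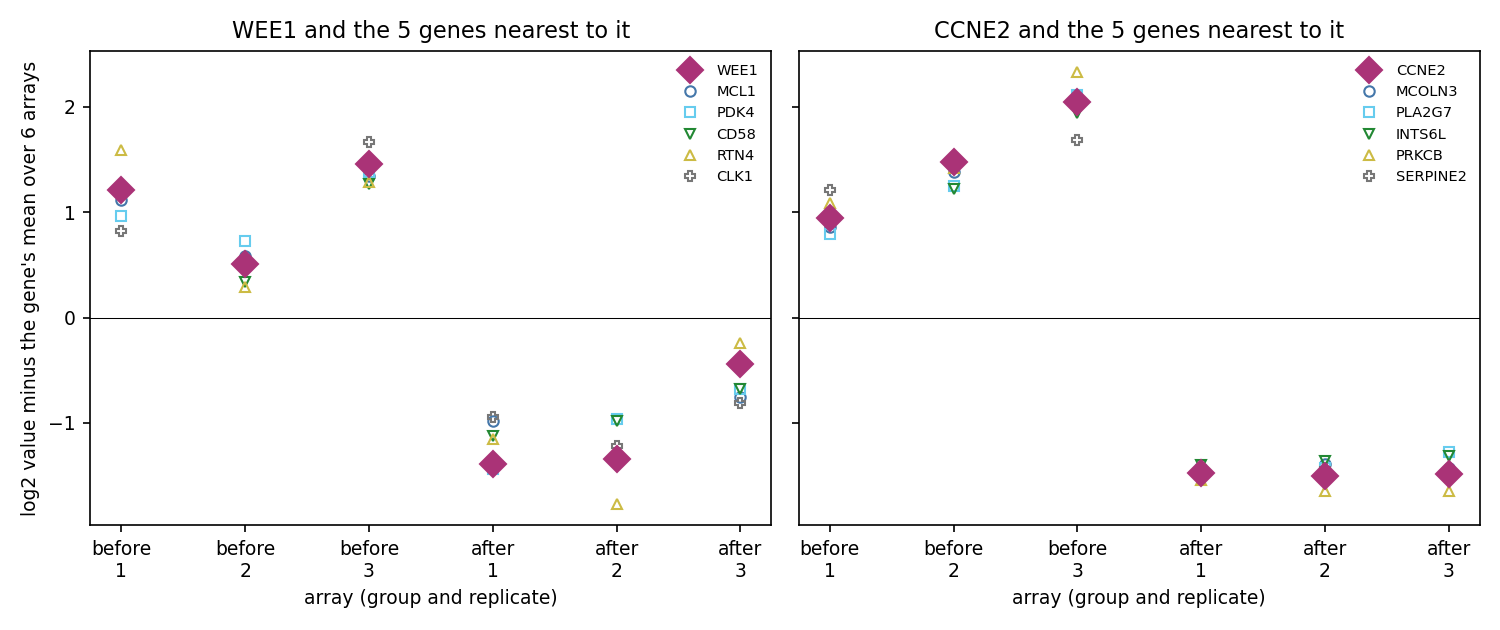
Log2 value minus the gene's mean over the 6 arrays (vertical axis) on each array (horizontal axis) for WEE1 (left) and CCNE2 (right), each as diamonds, with the 5 genes nearest to it as open symbols. Before maturation WEE1 and its neighbours are lowest in replicate 2, whereas CCNE2 and its neighbours are lowest in replicate 1 and highest in replicate 3. The neighbours were picked for this likeness.

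Same-numbered arrays gave the same picture for WEE1 and CCNE2. The differences for WEE1 in replicates 1, 2 and 3 were -2.60, -1.86 and -1.89, and for CCNE2 they were -2.42, -2.98 and -3.53. For CDK1 they were 0.53, -0.74 and 0.10, without a shared sign. For MOS they were 0.07, -0.08 and 0.13.

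The sign of the difference varied with the scaling and with the arrays included for MOS and CDK1, and with neither for WEE1 and CCNE2. On the deposited scale the median probe differed by 0.08. Relative to that median, MOS lay at -0.04 and CDK1 at -0.12, and WEE1 and CCNE2 at -2.20 and -3.06. Cyclic loess turned MOS to -0.04, and a common median turned CDK1 to 0.02. On the deposited scale, where 8.07% of all probes were called lower, 21 of 40 ribosomal protein genes fell and 0 rose. Their median difference was -0.55. Holding these genes level assumes that they did not change and adds the same amount to every difference. It moved the median probe to 0.58, and the differences became 0.54 for MOS, 0.46 for CDK1, -1.62 for WEE1 and -2.47 for CCNE2. Leaving out single arrays gave values from -0.0039 to 0.08 for MOS, from -0.22 to 0.17 for CDK1, from -2.43 to -1.92 for WEE1 and from -3.25 to -2.70 for CCNE2.

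**Figure D5:**
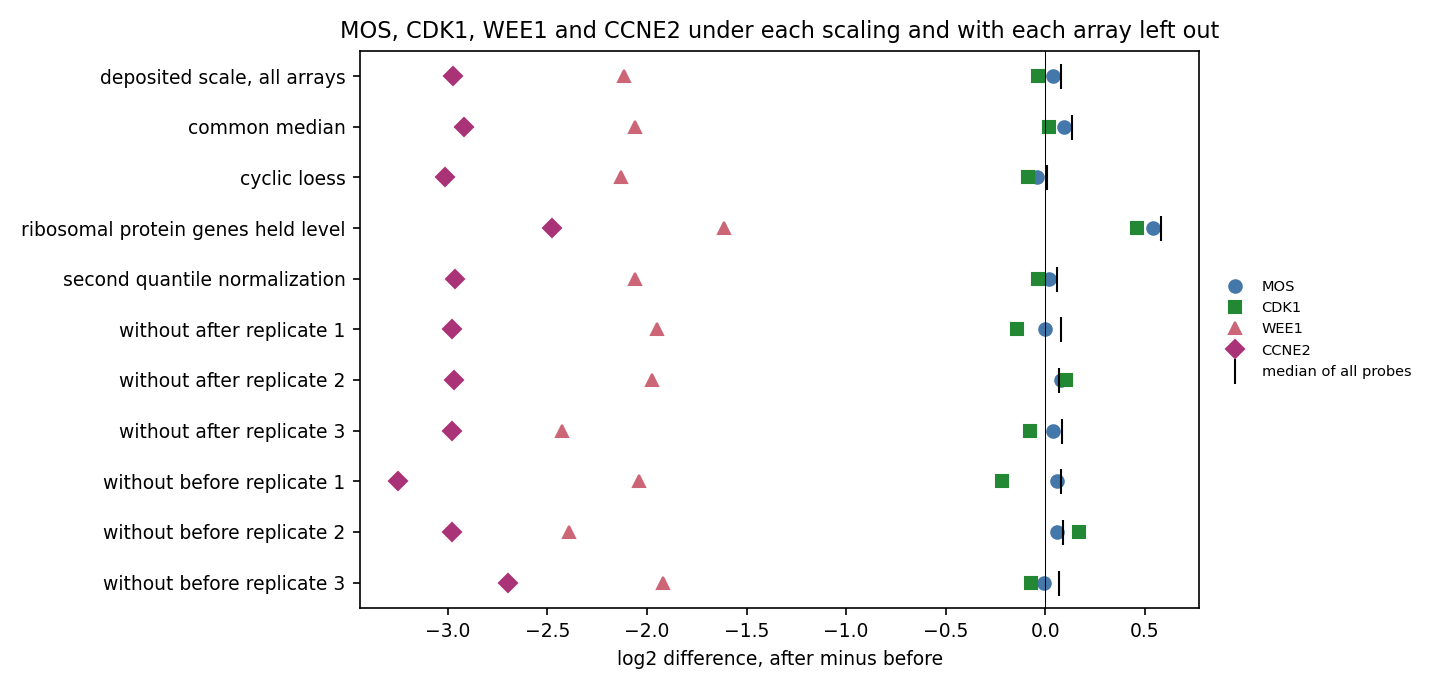
Log2 difference after minus before (horizontal axis) of MOS, CDK1, WEE1 and CCNE2 and the median of all probes (vertical ticks) on the deposited scale, under 4 other scalings and with each array left out (rows). MOS and CDK1 lie near the median of all probes, at 0.54 and 0.46 with ribosomal protein genes held level, while WEE1 and CCNE2 stay at -1.62 or lower throughout.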

How the data were processed

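The deposited table holds log2 expression values of 12258 probes on 6 arrays, made by the authors with RMA per the submitters' processing notes. The RMA version, its options and any probe filter are not stated there, and the log2 scale was read from the use of RMA and the range of values. Probe names came from the platform's annotation, brought up to date by gene identifier with RefSeq names (Sscrofa11.1): 10872 had 1 symbol, 318 several and 1068 none. The brightest of several probes stood for a gene. The comparison was fitted across the whole table with limma 3.58.1 under R 4.3.3 (lmFit, eBayes, two-sided, Benjamini-Hochberg over all probes, threshold 0.05), after minus before. The fit was tested on data simulated with independent normal errors, spreads drawn from limma's own model and few changed probes. There it called 39 of 40 probes changed by -2, 35 of 40 changed by -1 and 12 of 40 changed by -0.5. These rates check the fit and need not hold for the real arrays. The spread behind each p-value is that between pools labelled biological replicates. The 3 against 3 arrays limit the precision, and an exact permutation test cannot go below a p of 0.10.

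Same-numbered arrays deviated together from their group means (correlations 0.283, 0.120 and 0.142), which pairs the arrays by the criterion used; this is a hint from the data, as the labels state no pairing. The genes, the lists and the rule for named genes were chosen with earlier results of these data known. That rule named, per list, every called gene and the 2 largest differences, and the 5 nearest profiles of a gene with a range over 1; CCNB2, CDK2, FOSL1 and WEE2 were named besides, after their values were seen. Tables and figures used Python 3.11.15, pandas 2.3.3 and matplotlib 3.10.9. Alternatives were the replicate block, 4 scalings, a filter on the dimmest 25% of probes, trend and robust settings, and leaving out each array.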

Additional observations from a re-analysis of the deposited data

How the results depend on the processing

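WEE1 and CCNE2 kept negative differences, and differed in size, under all 10 alternatives that can change them, from -2.43 to -1.62 and from -3.25 to -2.47. Those of MOS ran from -0.042 (cyclic loess) to 0.54 and those of CDK1 from -0.22 to 0.46, with either sign, and with ribosomal protein genes held level the values were 0.54, 0.46 and, for CCNE2, -2.47. That scaling adds the same amount to every difference by construction. The count of all probes called higher was 394, and it became 915 with a common median, 254 with cyclic loess, 621 with the replicate block, 596 after a second quantile normalization and 9847 with ribosomal protein genes held level. The count called lower was 989, and 494 under that last scaling. Of all calls 71.5% were lower, against 49.3% with a common median, 59.2% after a second quantile normalization, 80.6% with cyclic loess and 4.78% with ribosomal protein genes held level. Without single arrays the counts ran from 103 to 434 higher and from 531 to 1013 lower. Leaving out replicate 1, 2 or 3 of the matured arrays gave 103, 119 and 204 higher calls, leaving out replicate 2 or 3 of the earlier arrays 258 and 166, and leaving out matured replicate 1 or 2 gave 531 and 545 lower calls. Of the 66 pathway genes 1 was called higher, and 2 with a common median, the replicate block, or trend and robust settings, 0 with cyclic loess and 52 with ribosomal protein genes held level, where 1 rather than 3 was called lower. Without single arrays 0 to 4 were called higher and 1 to 3 lower, with 4 higher without replicate 1 before maturation, and 1 lower without replicate 1 or 2 after or 3 before it. PRKAR1A turned to 0.036 with ribosomal protein genes held level. The cause of these changes was not tested. Over 28 other named genes, 313 of 361 values kept their side of the threshold, 25 gained a call, 22 lost it and 1 lost it with a turned sign. Genes called in neither fit could still change sign among the 313. With ribosomal protein genes held level, ANAPC5 went from -0.30 to 0.20. The block changed 2 of their calls, those of CDC25B and BHLHE40. Signal over background was not analysed here, which limits CCNE2 after maturation.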
